A study of Mus musculus with 10 samples.

Results

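The *Prss* and kallikrein (*Klk*) genes encode serine proteases of the trypsin type, and they were taken as every gene whose symbol starts with Prss or Klk followed by a digit, with 1 gene left out. In the RNA-seq tables of the *Rnf20* study 58 such genes were found among 20142, of which 34 were *Prss* and 24 were *Klk* genes. The table of adult testis listed 57 of them among 20007 genes and the table of Sertoli cells at 7 days after birth listed 34 among 17816, with 33 in both. The genes were divided by role into proteases of sperm and germ cells, the Leydig-type kallikreins *Klk1b21*, *Klk1b24* and *Klk1b27*, the other genes of the *Klk1* cluster, the remaining kallikreins and the remaining *Prss* genes.

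Serine proteases of this family are made as inactive precursors and cut other proteins next to basic or aromatic residues. Several act in spermatogenesis: some are stored in the acrosome, the vesicle at the tip of the sperm head, and others are tethered to the surface of germ cells or sperm by a lipid anchor. Tissue kallikreins release kinins and process growth factors, and the mouse carries a large cluster of closely related *Klk1* genes. Within that cluster *Klk1b21*, *Klk1b24* and *Klk1b27* are known from Leydig cells, the cells between the seminiferous tubules that make testosterone, and their products can cut proteins such as the growth factor carrier IGFBP3.

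Whole testis of adult mice was compared between 3 libraries labelled wild type and 3 labelled as conditional knockout of *Rnf20*, and cultured Sertoli cells at day 7 between 2 libraries of *Rnf20* Flox/Flox and 2 of *Amh-Rnf20* -/- mice. The Sertoli cells support the germ cells within the tubules, and Cre driven by the *Amh* promoter deletes *Rnf20* in them, while germ cells and Leydig cells keep the gene. The day 7 controls are wild type by their labels, whereas the study's methods give them as *Rnf20* Flox/Flox, that is, with floxed alleles and no Cre. The day 7 cells had been digested from testis, cultured and passaged, and the sources do not say whether the controls of the adult libraries carried floxed alleles. The adult age is not given in days. The titles and the methods give day 7 for the Sertoli cell libraries, while the growth protocol in their labels speaks of adult tissue, and day 7 is used here. Nothing in the labels says which libraries came from separate animals, so the p-values measure only the spread between these libraries.

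The targeted gene was looked at first. In adult testis *Rnf20* stood at 4.89, 3.32 and 4.09 FPKM (fragments scaled by transcript length and library depth) in the controls and at 9.16, 5.76 and 9.85 in the libraries labelled knockout. The log2 fold change was 0.12 (standard error, SE, 0.27; adjusted p = 0.688 from edgeR), and with total-count scaling it was 0.97 (adjusted p = 0.0168), so the adult label could not be checked by a lower *Rnf20* level, and every adult direction below rests on the label. For adult testis, the study describes *Amh-Rnf20* -/- mice as lacking round or elongated spermatids and as having less RNF20 protein. In the libraries labelled knockout the summed FPKM of 10 spermatid markers was at most 0.0577% of the control mean. At day 7 *Rnf20* stood at 16.64 and 16.01 FPKM in *Rnf20* Flox/Flox and at 10.25 and 12.58 in *Amh-Rnf20* -/- (log2 fold change −0.49, SE 0.12, adjusted p = 0.222). Totals lay between 15431912 and 16574144 counts per library in adult testis and between 17477268 and 17705347 at day 7. The first adult library labelled knockout stood apart from the other two, with a summed FPKM of the 8 spermatocyte markers at 0.0499% of the control mean, against 6.65% and 9.66%, and of the 7 spermatogonium markers at 3.61%, against 90.1% and 149%. Adult results are therefore also given without that library.

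In adult testis 39 of the 57 listed genes passed the filter on low values (at least 0.5 FPKM in 3 or more libraries) and were tested. Of these, 13 were lower and 2 were higher in the libraries labelled knockout past both thresholds of the study, a log2 fold change beyond 1 in either direction with an adjusted p under 0.001. Among all 15919 genes tested 46.7% passed both thresholds, 23.7% as lower and 23% as higher. At an adjusted p under 0.05, which 81.5% of all genes passed (6466 lower and 6503 higher), 26 were lower and 5 were higher. The median log2 fold change was −5.31 over the 39 genes and 0.01 over all genes tested, and scaling by total counts in place of TMM moved these medians to −4.42 and 0.87. In TMM-scaled counts 27 of the 39 lay below every control in all libraries labelled knockout and 5 above (43.1% and 42.4% of all genes tested), and in FPKM 26 and 6 (32.4% and 54.9%). Most of the 39 genes passed the filter through the controls, where they were high, so these counts describe the tested genes only. The number past both thresholds was 30 without the first library labelled knockout, 9 without the second and 7 without the third, and it was 8 without any 1 of the 3 controls. Over all genes tested the share past both thresholds moved in the same way, to 64.7%, 21.3% and 29.4% without the first, the second and the third library labelled knockout and to between 16.9% and 19.7% without a control.

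The sequences upstream of the *Klk1* cluster are shown first, because some genes of this cluster fell past both thresholds in adult testis and close neighbours did not. The cluster lies on chromosome 7 of GRCm38.p6, where RefSeq places *Klk1b8* at chr7:43950666-43954944 and *Klk1* at chr7:44225360-44229622. For 3 Leydig-type kallikreins and the 3 genes with the highest control levels among those that fell, the 250 bases before the transcription start of the RefSeq promoter table are printed on the plus strand. For *Klk1b21* that start, at position 44102292, lies 97676 bases inside the span of the gene, which begins at 44004616, and for *Klk1b24* it lies 2 bases inside the span. Capitals mark AGGTCA, the core recognised by many nuclear receptors including NR5A1, on either strand (TGACCT is its reverse complement), and the TATA-type element TTTAAA. The motifs were chosen after the expression values and the sequences had been seen. The windows are chr7:44102042-44102291 for *Klk1b21*, chr7:44187986-44188235 for *Klk1b24*, chr7:44052040-44052289 for *Klk1b27*, chr7:43950416-43950665 for *Klk1b8*, chr7:43975811-43976060 for *Klk1b9* and chr7:44012428-44012677 for *Klk1b26*.
Klk1b21: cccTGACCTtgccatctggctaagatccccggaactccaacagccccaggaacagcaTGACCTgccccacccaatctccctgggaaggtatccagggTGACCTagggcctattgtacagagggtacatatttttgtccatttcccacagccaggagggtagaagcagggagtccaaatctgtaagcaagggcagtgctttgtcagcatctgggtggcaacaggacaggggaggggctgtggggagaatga
Klk1b24: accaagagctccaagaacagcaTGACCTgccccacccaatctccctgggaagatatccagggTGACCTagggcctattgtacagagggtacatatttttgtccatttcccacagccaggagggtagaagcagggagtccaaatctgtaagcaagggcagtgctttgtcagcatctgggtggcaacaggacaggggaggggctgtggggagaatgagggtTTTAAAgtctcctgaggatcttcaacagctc
Klk1b27: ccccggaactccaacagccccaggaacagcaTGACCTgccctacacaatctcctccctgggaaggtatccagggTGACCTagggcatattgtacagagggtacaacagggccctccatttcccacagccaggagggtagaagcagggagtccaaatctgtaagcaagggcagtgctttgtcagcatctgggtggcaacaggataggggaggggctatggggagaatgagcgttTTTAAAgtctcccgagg
Klk1b8: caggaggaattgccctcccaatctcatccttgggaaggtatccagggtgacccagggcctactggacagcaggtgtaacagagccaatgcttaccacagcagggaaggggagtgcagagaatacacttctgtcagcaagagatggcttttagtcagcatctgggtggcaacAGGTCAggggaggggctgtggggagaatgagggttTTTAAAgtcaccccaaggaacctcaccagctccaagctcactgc
Klk1b9: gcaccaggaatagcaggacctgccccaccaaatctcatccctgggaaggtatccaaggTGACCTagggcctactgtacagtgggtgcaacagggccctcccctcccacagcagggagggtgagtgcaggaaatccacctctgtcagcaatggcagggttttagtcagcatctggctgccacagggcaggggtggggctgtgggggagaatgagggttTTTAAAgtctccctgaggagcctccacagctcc
Klk1b26: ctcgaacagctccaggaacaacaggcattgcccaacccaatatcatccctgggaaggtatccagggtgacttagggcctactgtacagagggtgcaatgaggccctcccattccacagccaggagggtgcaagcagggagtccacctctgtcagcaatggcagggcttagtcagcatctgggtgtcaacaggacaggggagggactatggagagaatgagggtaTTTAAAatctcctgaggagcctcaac

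Upstream of *Klk1b21* there were 3 matches to AGGTCA, and *Klk1b24* and *Klk1b27* had 2 each. Of the 6 cluster genes that fell, *Klk1b26* had none and the other 5 had 1 each. Of the other genes of the cluster *Klk1* had 3, *Klk1b1* 2, *Klk1b22* 1 and *Klk1b16* none. At least 1 match was found in 14% of 32851 promoter windows of the same length and 2 or more in 1.36%. The longer NR5A1 motif CAAGGTCA, which contains AGGTCA, was found only upstream of *Klk1b21* among the 6 printed windows, from 247 to 240 bases before the start, and in 1.33% of all windows. TTTAAA was present in all printed windows but that of *Klk1b21*, where it began 5 bases after the start, and in 12.1% of all windows. The *Klk1b21* window is shifted, since its last bases recur 35 bases before the end of the *Klk1b24* window. The missing TTTAAA goes with the start that was used. The stretches of *Klk1b24* and *Klk1b27* that would align with the far end of the *Klk1b21* window were not searched, so its CAAGGTCA and the count of AGGTCA cannot be read as differences between the genes. Neither the cAMP response element TGACGTCA nor the androgen response element in its full form was found in any of the 6 windows, and they occurred in 1.55% and 0.00913% of all windows. These matches are descriptions of letters on either strand and not of bound sites. The upstream sequences of the Leydig-type kallikreins were 90.0% to 97.7% identical to each other and 76.7% to 84.8% identical to those of the 6 genes that fell, which shared 76.7% to 90.7% among themselves.

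Sperm and germ cell proteases held the highest summed level of the role groups in control testis and were far lower in the libraries labelled knockout. All 14 listed genes were tested, and in all 14 every library labelled knockout lay below every control, both in FPKM and in TMM-scaled counts, where 32.4% and 43.1% of all genes tested did so. Of the 14, 4 fell past both thresholds (*Prss40*, *Prss51*, *Prss52* and *Prss55*) and 13 were lower at an adjusted p under 0.05. Among all 15919 genes tested 23.7% were lower past both thresholds. At an adjusted p under 0.05 6466 of them were lower, and 81.5% passed in either direction. Their summed level was 1552.68, 1612.11 and 1442.19 FPKM in the controls, against 0.81, 50.41 and 58.87 in the libraries labelled knockout. The median log2 fold change was −5.92, with fitted values from −11.98 (*Prss52*) to −2.11. For *Prss52* only the bound given below can be read as a fold. Without the first library labelled knockout all 14 fell past both thresholds, and 2 did so without the second or without the third, while the share of all genes moved as given above.

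The acrosomal proteases *Prss39* and *Prss40*, also known as TESP1 and TESP2, lie side by side on chromosome 1 (chr1:34498412-34561004). *Prss39*, the most abundant member, measured 537.72, 581.38 and 514.20 FPKM in the controls, against 0.13, 15.46 and 14.68 in the libraries labelled knockout, with a log2 fold change of −6.65 (SE 1.46, adjusted p = 0.0056). *Prss40* measured 60.84, 45.25 and 38.55 FPKM against 0.21, 1.20 and 1.61 (−6.50, SE 0.63, adjusted p = 1.75e-04), and its call was lost when any 1 library other than the first labelled knockout was left out (adjusted p up to 0.00181). The levels of both genes in the second and the third libraries labelled knockout were 2.49% to 3.34% of the control mean.

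On chromosome 14 *Prss55*, *Prss51* and *Prss52* sit within chr14:64075435-64113751, and these neighbours fell to the lowest share of their control level among the sperm proteases. *Prss55*, a lipid-anchored protease that sperm need to pass into the oviduct, measured 251.38, 290.46 and 258.04 FPKM in the controls, against 0, 0.63 and 0.58 in the libraries labelled knockout (log2 fold change −10.17, SE 0.82, adjusted p = 9.31e-05), and its call was lost without the second or the third library labelled knockout (adjusted p = 0.00106 and 0.00135). *Prss52* measured 154.09, 152.85 and 146.04 FPKM against 0, 0.16 and 0, and *Prss51* 104.74, 117.36 and 88.70 against 0, 0.27 and 0. No library labelled knockout held more than 3 counts of either gene, so only bounds can be given: *Prss52* was at least 1060-fold lower and *Prss51* at least 671-fold lower after TMM scaling, with 3 counts per library as the floor. With total-count scaling these bounds were 597-fold and 378-fold.

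A row of germ cell proteases on chromosome 9 (chr9:110797248-110864629) kept more of its control level. *Prss42*, *Prss43* and *Prss44*, testis proteases known from spermatocytes and spermatids, had control levels of 47.67, 38.45 and 39.49 FPKM, 12.98, 10.16 and 9.89 FPKM, and 13.18, 11.60 and 13.82 FPKM. In the libraries labelled knockout *Prss42* stood at 0, 2.05 and 3.04 FPKM, *Prss43* at 0, 0.53 and 0.93, and *Prss44* at 0.04, 1.28 and 1.86. The groups were well apart for each, with log2 fold changes of −5.50, −5.37 and −4.55 and adjusted p-values of 0.00236, 0.0013 and 0.00243. Next to them *Prss45* measured 56.15, 53.56 and 47.77 FPKM against 0, 3.74 and 3.57 (−5.31, adjusted p = 0.00279), and *Prss46* 87.49, 94.97 and 86.19 against 0, 3.34 and 4.45 (−6.00, adjusted p = 0.00239). Over these 5 genes the second library labelled knockout kept 3.73% to 9.95% of the control mean and the third 4.97% to 14.5%, whereas *Prss51*, *Prss52* and *Prss55* on chromosome 14 kept 0.106% to 0.261% and at most 0.218%.

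*Prss50*, at the end of the chromosome 9 row and known as TSP50, differed from its neighbours. It measured 31.45, 24.37 and 23.11 FPKM in the controls, against 0.21, 13.36 and 20.37 in the libraries labelled knockout. In FPKM the second and the third thus kept 50.8% and 77.4% of the control mean. These shares are not TMM-scaled, and with total-count scaling the median log2 fold change over all genes tested was 0.87. The TMM-scaled log2 fold change of *Prss50* was −2.11 (SE 1.08, adjusted p = 0.114), and without the first library labelled knockout it was −1.41 (adjusted p = 1.35e-04). *Prss41* was like it in this respect, with 4.95, 3.62 and 4.47 FPKM against 0.22, 2.46 and 2.27 (−2.39, SE 0.69, adjusted p = 0.0177). The level of *Prss41* in the second and the third libraries labelled knockout was 56.6% and 52.2% of the control mean.

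The remaining germ cell proteases were *Prss21* and *Prss54*. *Prss21*, or testisin, a lipid-anchored protease of the sperm surface, measured 87.86, 78.21 and 75.74 FPKM in the controls against 0, 3.69 and 4.01 (−5.85, SE 0.99, adjusted p = 0.00181). *Prss54*, whose product is thought to lack catalytic activity, measured 102.18, 109.87 and 96.18 FPKM against 0, 2.24 and 1.5 (−7.35, SE 1.13, adjusted p = 0.00118). In the first library labelled knockout 9 of the 14 genes had no count at all.

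**Figure D1:**
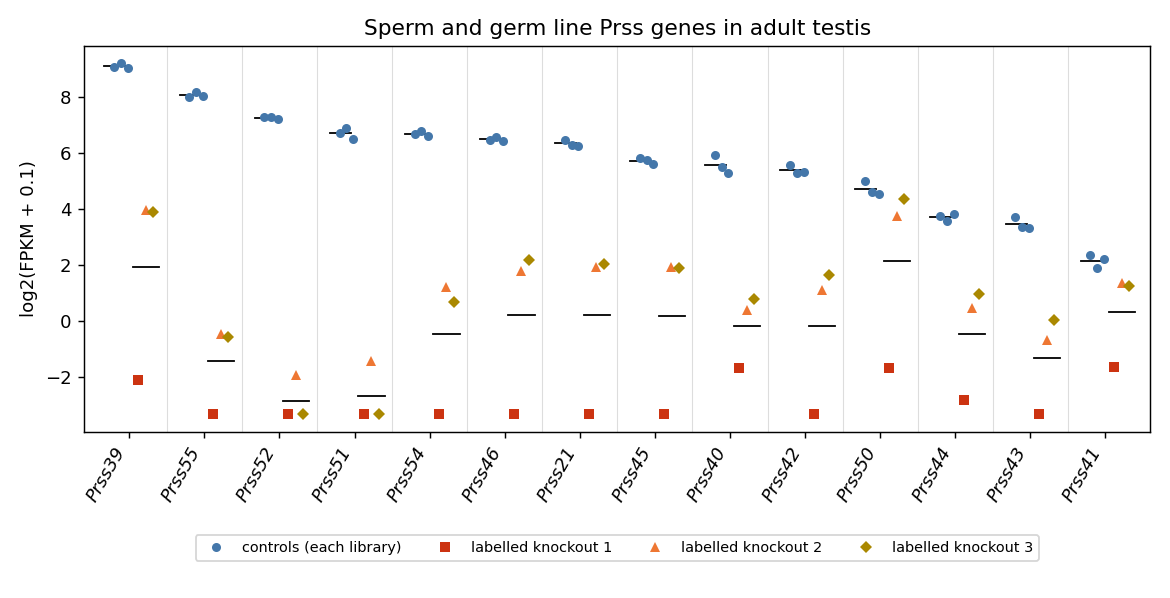
Level of each sperm and germ cell protease gene in adult testis, as log2(FPKM + 0.1) on the vertical axis, ordered by control mean. Circles are the 3 controls, the other symbols the 3 libraries labelled knockout, and black bars the group means of the log2 values. The controls lie above every library labelled knockout for all 14 genes, the first library labelled knockout is the lowest or shares the lowest value, and *Prss50* and *Prss41* show the smallest gaps.

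The share that each gene kept can be set beside the markers of the germ cell stages. The summed FPKM of 10 spermatid markers was 0.0577% and 0.0320% of the control mean in the second and the third libraries labelled knockout and 0.00267% in the first. That sum is mostly protamine and transition protein genes, and the single markers ranged from *Prm1*, at 0.0202% and 0.00181%, to *Spaca1*, at 4.52% and 4.97%. The 8 spermatocyte markers sum to 6.65% and 9.66%, but *Ldhc* holds most of that sum, and the single markers ranged from 4.46% to 33% in the second library and from 5.33% to 57.9% in the third. Spermatogonium markers went both ways, with *Ddx4*, the most abundant, at 11.6% and 18.3% and *Uchl1* at 430% and 674%. The part of these cell types in the result was not tested, and in whole testis fewer cells of a type and less RNA per cell cannot be told apart.

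Of the 11 *Prss* genes tested outside the sperm list 5 were far lower in the libraries labelled knockout. Past both thresholds 3 of the 11 were lower, beside 23.7% of all genes tested. *Prss58*, a trypsin-like gene on chromosome 6, measured 195.79, 176.88 and 172.59 FPKM in the controls, against 0, 0.34 and 0.26 in the libraries labelled knockout, and it fell with a log2 fold change of −10.59 (SE 0.56, adjusted p = 3.35e-05). *Prss47* measured 37.39, 35.32 and 37.65 FPKM against 0, 1.57 and 1.10 (−6.31, adjusted p = 5.38e-04), and *Prss38* 6.71, 4.74 and 5.02 against 0.07, 0.37 and 0.32 (−4.93, adjusted p = 1.44e-04). All 3 passed both thresholds. The calls of *Prss47* and *Prss38* were lost when any 1 library other than the first labelled knockout was left out, with adjusted p-values up to 0.00431 and 0.00129, and that of *Prss47* also with total-count scaling (adjusted p = 0.00118) and with limma on log2(FPKM + 0.1) (adjusted p = 0.0026). *Prss48* measured 13.40, 16.47 and 14.49 FPKM against 0, 0.60 and 1.32 (−5.30, adjusted p = 0.00112). *Prss56*, known for its part in eye growth, measured 13.99, 14.73 and 10.41 FPKM against 0, 0.81 and 1 (−5.28, adjusted p = 0.00161). These last values missed the adjusted p of 0.001 and passed it without the first library labelled knockout, at 9.00e-07 and 3.98e-07.

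The *Klk1* cluster was divided. Summed over its 13 genes in the table, the cluster measured 640.76, 638.36 and 600.12 FPKM in the controls, against 18.30, 1057.35 and 378.98 in the libraries labelled knockout, so the groups overlapped for the cluster as a whole. Of the 10 genes other than the Leydig-type kallikreins 6 fell past both thresholds, and none of the 13 was higher past them (23.7% and 23% of all genes tested). The Leydig-type kallikreins made up 28.3%, 15.6% and 20.6% of the cluster in the controls, against 88.6%, 95.1% and 96.1% in the libraries labelled knockout. These shares do not depend on the scaling between libraries, and the groups were far apart in them.

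The genes that fell were led by *Klk1b8*, with 289.06, 330.73 and 242.22 FPKM in the controls, against 0.10, 3.59 and 1.07 in the libraries labelled knockout (log2 fold change −8.36, SE 0.98, adjusted p = 3.78e-04). *Klk1b26*, an epidermal growth factor binding protein and prorenin-cutting kallikrein, measured 68.15, 89.71 and 82.44 FPKM against 0, 0.40 and 0.13 (−9.30, SE 0.55, adjusted p = 4.03e-05). *Klk1b9*, another such binding protein, measured 39.23, 58.89 and 71.21 FPKM against 0, 0.20 and 0. It held at most 2 counts in any library labelled knockout and was at least 317-fold lower after TMM scaling (179-fold with total counts). *Klk1b3* and *Klk1b4* encode the gamma and alpha subunits of the nerve growth factor complex of the salivary gland. *Klk1b3* measured 20.15, 27.49 and 28.61 FPKM against 0.10, 0.49 and 0.31 (−7.20, adjusted p = 4.15e-05). *Klk1b4* measured 2.68, 4.18 and 4.07 FPKM against 0, 0.21 and 0.11, at least 19.5-fold lower (11-fold with total counts). *Klk1b5* measured 7.87, 9.79 and 15.22 FPKM against 0.10, 1.02 and 0.32 (−5.32, adjusted p = 5.55e-04). The calls of *Klk1b8* and *Klk1b5* were lost without any 1 control or the third library labelled knockout (adjusted p up to 0.00429 and 0.00424), that of *Klk1b4* also without the second (up to 0.00254), and that of *Klk1b5* with total-count scaling (0.00122) and with limma on log2(FPKM + 0.1) (0.00101). The summed level of these 6 genes was 427.14, 520.79 and 443.77 FPKM in the controls, against 0.30, 5.91 and 1.94 in the libraries labelled knockout.

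Tissue kallikrein itself, *Klk1*, was lower to a smaller extent. It measured 16.90, 14.98 and 16.15 FPKM in the controls against 1.05, 10.14 and 4.50, with a log2 fold change of −2.44 (SE 0.71, adjusted p = 0.0177), and with total-count scaling the adjusted p was 0.0802. It passed both thresholds with DESeq2 (−2.65, adjusted p = 5.1e-04) and with edgeR without the first library labelled knockout (−1.82, adjusted p = 8.9e-04). The 3 genes left overlapped between the groups. *Klk1b16* measured 2.98, 2.01 and 2.71 FPKM against 0, 14.67 and 3.39, *Klk1b1* 3.46, 0.30 and 1.20 against 0, 6.79 and 0.53, and *Klk1b22* 8.77, 0.82 and 12.74 against 0.74, 13.96 and 4.41. Their adjusted p-values were 0.805, 0.865 and 0.417, and the second library labelled knockout had the highest value of each.

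No Leydig-type kallikrein passed both thresholds when all libraries were used, and none had an adjusted p under 0.05. *Klk1b21* measured 64.86, 46.12 and 50.38 FPKM in the controls, against 6.73, 337.10 and 106.23 in the libraries labelled knockout. *Klk1b24* measured 52.47, 21.45 and 31.87 FPKM against 4.59, 314.35 and 103.23, and *Klk1b27* 64.18, 31.89 and 41.30 against 4.89, 354.43 and 154.75. In FPKM, for each gene the first library labelled knockout lay below every control and the second and the third lay above every control. After TMM scaling this did not hold for *Klk1b21*, where the third library labelled knockout, at 49.0 CPM (counts scaled to library size), lay between the controls, at 42.2 to 55.5 CPM. The log2 fold changes were 0.60, 1.13 and 1.03, with SEs of 1.09, 1.18 and 1.17 and adjusted p-values of 0.623, 0.404 and 0.439.

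These values rest on single libraries. Without the first library labelled knockout the log2 fold changes were 1.32, 1.85 and 1.75 with adjusted p-values of 0.0153, 0.00548 and 0.00192, none past both thresholds. Without the second they were −0.84, −0.29 and −0.11. When the first library was left out and total counts were used for scaling, a setting chosen after the data had been seen, all 3 rose past both thresholds (2.04, 2.56 and 2.47), as 69.4% of all genes passed them in either direction. Reads of these genes are also harder to assign than those of most sperm proteases. Of all 50-base words in their transcripts 29.1%, 33.9% and 14.3% recur in other genes. The share is 22.6% for *Klk1b8* and 15% for *Klk1b26*, both above that of *Klk1b27*. Among the sperm proteases it is 11.3% for *Prss40* and 0% for *Prss55*. The RefSeq span of *Klk1b21* (chr7:44004616-44106583) also covers *Klk1b26* and *Klk1b27*, and RSEM, which the methods name for the day 7 libraries, divides reads that fit several genes by an estimate and not by direct evidence.

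**Figure D2:**
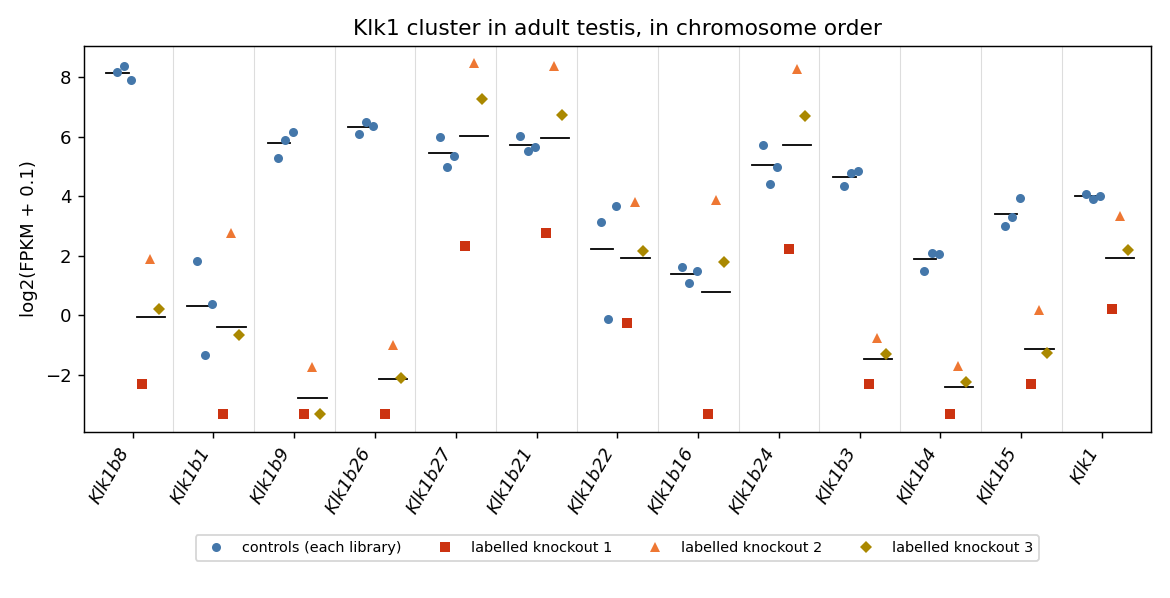
Levels of the 13 *Klk1* cluster genes in adult testis as log2(FPKM + 0.1), in their order along chromosome 7, with circles for the 3 controls, other symbols for the 3 libraries labelled knockout and black bars for the group means of the log2 values. *Klk1b8*, *Klk1b9*, *Klk1b26*, *Klk1b3*, *Klk1b4* and *Klk1b5* are low in every library labelled knockout, while *Klk1b27*, *Klk1b21* and *Klk1b24* lie below the controls in the first and above them in the second and the third.

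Sperm proteases and Leydig-type kallikreins were then compared within each library. For each FPKM of the Leydig-type kallikreins the controls held 8.55, 16.2 and 11.7 FPKM of sperm proteases, and the libraries labelled knockout held 0.05, 0.0501 and 0.162. The ratio was below every control in all 3 libraries labelled knockout, the first included, where the sperm proteases summed to 0.81 FPKM and the Leydig-type kallikreins to 16.21. Because the genes were chosen with these patterns known, no test was made on the ratio.

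In the first library labelled knockout the Leydig-type kallikreins and the Leydig cell markers went opposite ways from the controls. All 7 markers (*Cyp17a1*, *Hsd3b1*, *Insl3*, *Star*, *Cyp11a1*, *Hsd17b3* and *Lhcgr*) were higher past both thresholds, and their summed FPKM was 1278%, 1773% and 1439% of the control mean in the 3 libraries labelled knockout. That sum is mostly *Insl3*, which had the lowest percent of the 7 in each library. The single markers ranged from 1172% to 5456% in the first, 1723% to 3755% in the second and 1414% to 2892% in the third. In the first library labelled knockout the Leydig-type kallikreins stood at 10.7% to 13.0% of their control means, in the second at 627% to 891% and in the third at 198% to 338%. Per 1000 FPKM of *Cyp17a1*, an enzyme of androgen synthesis, *Klk1b21* measured 331, 621 and 302 in the controls, against 2.05, 99.9 and 47.6 in the libraries labelled knockout. Per 1000 FPKM of *Insl3*, a Leydig cell hormone, it measured 13.3, 8.54 and 13.6 against 0.123, 4.20 and 1.61. *Klk1b24* and *Klk1b27* were likewise below every control relative to either marker, with the closest values for *Klk1b24* per *Insl3*, 3.97 in the second control and 3.92 in the second library labelled knockout. Together the Leydig-type kallikreins reached 3.44%, 1.77% and 3.07% of the Leydig marker sum in the controls, against 0.0255%, 1.14% and 0.509% in the libraries labelled knockout. What part Leydig cells have in these levels was not tested.

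**Figure D3:**
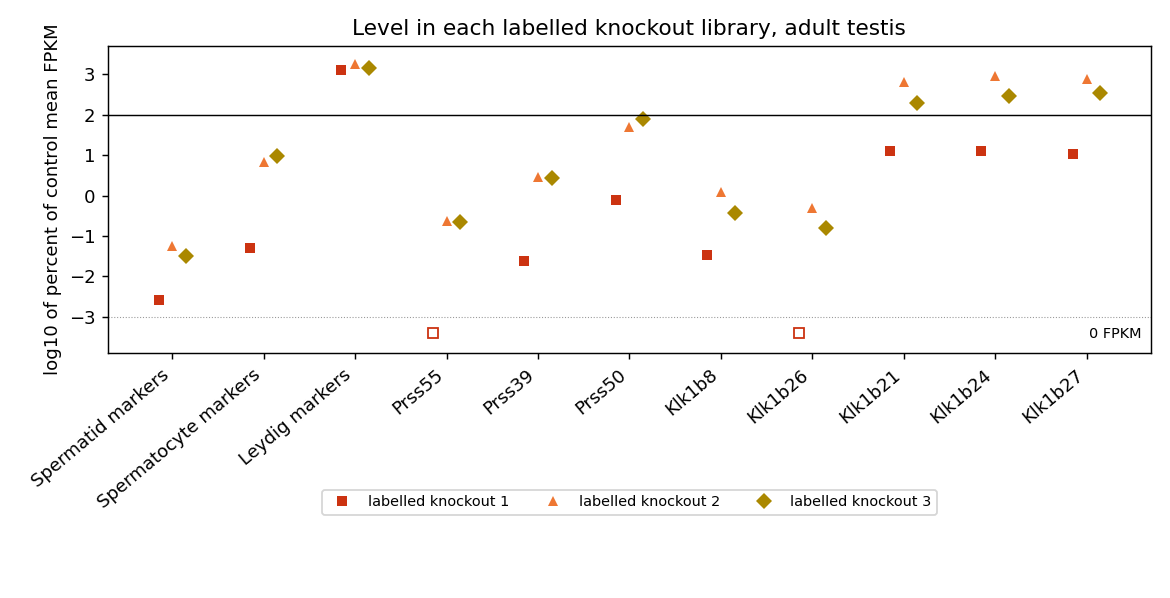
Level in each library labelled knockout as log10 of the percent of the adult control mean FPKM, with the black line at 100% and open symbols for a value of 0. The percents are not TMM-scaled, and with total-count scaling the median log2 fold change over all genes tested was 0.87. Summed spermatid, spermatocyte and Leydig markers are set beside 8 protease genes. Leydig markers lie above 100% in all 3 libraries, whereas *Klk1b21*, *Klk1b24* and *Klk1b27* do not exceed 13.0% in the first library and lie above 100% in the second and the third.

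Among the 11 tested *Prss* genes outside the sperm list 2 were higher past both thresholds, beside 23% of all genes tested. *Prss35*, on chromosome 9 (chr9:86743240-86758443), encodes a secreted protein related to trypsin that lacks the usual catalytic serine. It measured 4.70, 4.36 and 4.69 FPKM in the adult controls, against 128.55, 101.47 and 112.50 in the libraries labelled knockout, and it rose with a log2 fold change of 3.80 (SE 0.18, adjusted p = 2.79e-05). All 3 libraries labelled knockout lay close together for this gene, the first included. Leaving out any 1 library gave log2 fold changes between 3.78 and 3.91. *Prss8*, or prostasin, which activates the epithelial sodium channel, rose from 0.13, 0.04 and 0.11 FPKM to 5.67, 2.81 and 2.22 (4.43, SE 0.62, adjusted p = 7.92e-04). The controls held only 3, 1 and 3 counts of *Prss8*, so the size of its change is uncertain. Its call was lost with median-ratio scaling (adjusted p = 0.00108) and when any 1 library other than the first labelled knockout was left out, with adjusted p-values from 3.74e-05 to 0.00519 over the libraries left out in turn.

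Other genes of this kind did not pass both thresholds in the edgeR test with all libraries. *Prss36*, or polyserase-2, a protein with several protease domains, measured 1.92, 1.24 and 0.87 FPKM in the controls against 7.23, 6.87 and 9.43 (1.84, SE 0.33, adjusted p = 0.00242). It passed both thresholds with total-count scaling (adjusted p = 5.35e-04), DESeq2 (7.44e-06), limma on log2(FPKM + 0.1) (5.19e-04) and log2(FPKM + 1) (1.83e-04) and without the first library labelled knockout (3.10e-04). *Prss12*, or neurotrypsin, which cuts agrin at synapses, measured 0.39, 0.13 and 0.18 FPKM against 0.78, 9.25 and 10.85 (4.0, SE 1.03, adjusted p = 0.0108). The first library labelled knockout was nearest to the controls for *Prss12*, and without it the adjusted p was 1.49e-06. With DESeq2 and all libraries *Prss12* passed both thresholds (3.81, adjusted p = 7.74e-05). *Klk8*, or neuropsin, was the only tested kallikrein outside the *Klk1* cluster, with 0.27, 0 and 0.11 FPKM against 0.95, 1.5 and 1.57 (2.27, adjusted p = 0.0224). It passed both thresholds with limma on log2(FPKM + 1) (1.05, adjusted p = 7.1e-04). *Prss53* measured 0.27, 0.81 and 0.31 FPKM against 1.88, 1.12 and 1.21 (0.98, adjusted p = 0.132), with groups that overlapped in TMM-scaled counts, and 79.5% of its 50-base words recur in other genes, in part on the opposite strand.

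*Prss23*, a secreted protease, had nearly the same FPKM in both groups. It measured 18.71, 21.28 and 16.56 in the controls, against 23.77, 16.31 and 14.48 in the libraries labelled knockout. Its log2 fold change was −0.81 with TMM scaling (SE 0.25, adjusted p = 0.0228) and 0.04 with total counts (adjusted p = 0.865), so its direction turned with the scaling.

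The somatic markers moved as well in adult testis. Relative to the control mean, the summed FPKM of 9 Sertoli cell markers was 431%, 772% and 884% in the 3 libraries labelled knockout, that of 5 smooth muscle-like myoid markers 1262%, 606% and 879%, that of 5 macrophage markers 3118%, 2647% and 2331%, that of 4 endothelial markers 2373%, 1570% and 1473%, and that of 4 mast cell markers 13372%, 5037% and 1647%. The Sertoli cell sum is mostly *Clu*, and its markers did not move together: *Rhox5* fell past both thresholds (1.85%, 1.85% and 7.68% of the control mean), and in the first library *Fshr*, *Gata1* and *Sox9* were at 25.1%, 59.7% and 65.7%. Across the libraries labelled knockout *Prss35* stood at 2805%, 2214% and 2455%, *Prss8* at 6075%, 3011% and 2379% and *Prss12* at 334%, 3964% and 4650%. The percents of *Prss8* rest on 3, 1 and 3 control counts. Those of the mast cell markers rest on control sums of 0.46 to 0.79 FPKM. The part of these cell types in the levels of *Prss35*, *Prss8* and *Prss12* was not tested.

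The 18 adult genes that did not pass the filter reached at most 5.19 FPKM. That value belonged to *Prss16*, the thymus-specific protease, in the third library labelled knockout, with 0.03 and 2.31 in the first and second and 0.10 to 0.23 in the controls. The other 17 stayed under 0.77 FPKM. They included 10 kallikreins outside the *Klk1* cluster and the pancreatic trypsin *Prss2*, which read 0.11 to 0.32 FPKM in the controls, against 0 in the libraries labelled knockout.

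Genes that act with these proteases were taken from a list of 22 inhibitors, receptors, substrates and other proteases, of which 13 were tested in adult testis. Past both thresholds 3 were higher (*Igfbp3*, *Plau* and *Serpine2*) and 2 were lower (*Acrbp* and *Pcsk4*). At an adjusted p under 0.05 there were 7 higher and 5 lower. These 5 and 12 of 13 genes stand beside 46.7% and 81.5% of all genes tested. *Igfbp3*, the growth factor carrier that kallikreins of this cluster can cut, measured 1.05, 1.14 and 1.23 FPKM in the controls, against 129.95, 91.53 and 61.88 in the libraries labelled knockout (log2 fold change 5.52, SE 0.37, adjusted p = 5.60e-05). The urokinase gene *Plau* measured 0.37, 0.15 and 0.41 FPKM against 10.95, 5.70 and 8.50 (3.95, adjusted p = 2.97e-04). *Serpine2*, a serine protease inhibitor, measured 1.24, 1.12 and 1.11 FPKM against 12.21, 13.92 and 17.48 (2.78, adjusted p = 5.04e-05).

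Partners known from sperm were found among the lower genes. Proacrosin, *Acr*, the main acrosomal protease, measured 189.65, 201.39 and 189.78 FPKM in the controls against 0.11, 8.04 and 8.39 (−6.01, adjusted p = 0.00475). Its binding protein *Acrbp* measured 491.68, 522.35 and 497.13 FPKM against 6.49, 23.85 and 27.74 (−5.59, adjusted p = 2.19e-04), and the sperm proprotein convertase *Pcsk4* 66.91, 67.42 and 71.49 against 3, 4.75 and 3.94 (−5.01, adjusted p = 2.75e-05). *Spink2*, an acrosomal inhibitor, measured 2005.95, 2269.67 and 1816.64 FPKM against 0.17, 88.58 and 88.91 (−6.00, adjusted p = 0.0150). *Acr* and *Spink2* thus kept 4.15% to 4.38% of the control mean in the second and the third libraries labelled knockout, within the range of the sperm proteases. *Serpina5*, an inhibitor of acrosin and other proteases that is named here after its values were seen, went the other way, with 42.77, 37.12 and 40.96 FPKM in the controls against 1195.51, 444.15 and 331.52 (3.21, adjusted p = 0.0023). Without the first library labelled knockout 7 partners were higher and 5 lower past both thresholds, beside 64.7% of all genes tested in either direction. The number past both thresholds was 3 without any 1 control or without the third library labelled knockout. In these settings 16.9% to 19.7% and 29.4% of all genes tested passed.

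At day 7 the cultures held few of these proteases. Of 34 listed genes 10 passed the filter (at least 0.5 FPKM in 2 or more libraries) and the other 24 reached at most 0.49 FPKM. *Klk1b21*, *Klk1b24* and *Klk1b27* were not in the day 7 table, 2 other genes of their cluster reached at most 0.29 FPKM, and of the sperm proteases *Prss46* alone passed the filter, with 0.75 and 0.70 FPKM in *Rnf20* Flox/Flox and 0.99 and 0.46 in *Amh-Rnf20* -/-. The cultures carried markers of Sertoli cells, with a summed FPKM of 1187 to 1313.7 in *Rnf20* Flox/Flox, but also of myoid cells, at 1849.45 to 1947.29. That Sertoli cell sum is mostly *Clu*, at 961.17 and 859.08 FPKM, with *Sox9* at 41.84 and 39.43 and *Fshr* at 2.16 and 1.59.

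No protease gene passed both thresholds or had an adjusted p under 0.05 at day 7 with edgeR, nor did any of the 12880 genes tested (0%), and DESeq2 also called none of the 10, beside 126 of all genes (0.978%). At an unadjusted p under 0.05, which 15.5% of all genes passed, there was 1 of the 10, *Prss12*. *Prss35* was the most abundant member in the cultures, with 693.49 and 590.43 FPKM in *Rnf20* Flox/Flox and 155.95 and 407.71 in *Amh-Rnf20* -/- (log2 fold change −1.12, SE 0.48, adjusted p = 0.359). Both *Amh-Rnf20* -/- values lay below both *Rnf20* Flox/Flox values, and so they did for *Prss53*, with 1.21 and 1.04 against 0.70 and 0.79 FPKM (−0.55, adjusted p = 0.377). *Prss12* measured 0.54 and 0.46 FPKM against 2.57 and 0.80 (1.79, adjusted p = 0.308), and *Prss27* 0.52 and 0.98 against 3.84 and 1.24 (1.79, adjusted p = 0.338), both above. Non-overlap of this kind held for 24.8% of all genes as higher and 26.1% as lower, against 2 and 2 of the 10.

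The other day 7 genes overlapped between the groups. *Prss23* measured 208.58 and 206.27 FPKM in *Rnf20* Flox/Flox against 239.35 and 189.53 in *Amh-Rnf20* -/-, *Prss36* 3.71 and 2.90 against 2.95 and 3.93, and *Klk8* 3.46 and 2.13 against 3.72 and 2.24. *Prss8* measured 0.57 and 0.45 FPKM against 0.65 and 0.32. *Prss22*, a tryptase found only in the day 7 table, measured 1.57 and 0.54 FPKM against 0.60 and 0.05 (−1.53, adjusted p = 0.532). Without the second *Amh-Rnf20* -/- library *Prss12* was higher and *Prss35* lower past both thresholds, as were 5.05% of all genes. With 1 library left in that group the spread comes from the controls alone and the lone library is assumed to vary like them. Leaving out any other library gave no protease gene.

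*Prss35* in the cultures can be set beside the cell type markers. In the first and second *Amh-Rnf20* -/- libraries *Prss35* stood at 24.3% and 63.5% of the control mean, the summed Sertoli cell markers at 61.8% and 76.4% and the summed myoid markers at 181% and 183%. Summed Leydig markers stood at 190% and 135% and summed spermatogonium markers at 70.7% and 68.3%. The Leydig sum is mostly *Cyp11a1*, and its 7 markers ranged from 19.1% (*Hsd17b3*) to 514% (*Cyp17a1*) in the first library. In the second they ranged from 83.7% (*Star*) to 400% (*Cyp17a1*), and *Cyp17a1* held at most 5 counts in any day 7 library. The spermatogonium sum is mostly *Uchl1*, and its 7 markers ranged from 33.7% to 76.4% and from 57.6% to 136%. The 9 Sertoli cell markers ranged from 16.9% (*Inha*) to 237% (*Rhox5*) in the first and from 55.6% (*Amh*) to 200% (*Rhox5*) in the second, with 7 below the control mean in each. *Rhox5* held at most 6 counts in any day 7 library. *Sox9* stood at 25.1% and 63.1%, *Wt1* at 63.1% and 75.6% and *Tjp1* at 117% and 74.8%. All 5 myoid markers were above it in both, from 149% to 614% and from 166% to 331%. The part of the cell mixture in the *Prss35* value was not tested. Of the 22 partner genes 14 were tested at day 7, and none passed both thresholds with edgeR (0% of all genes) or DESeq2 (0.978% of all genes). With edgeR none had an adjusted p under 0.05, and with DESeq2 *Spint2* (7.48e-05), *F2rl1* (0.0160) and *Igfbp3* (0.0335) had. *Igfbp3* measured 187.75 and 197.44 FPKM in *Rnf20* Flox/Flox against 116.84 and 147.16 in *Amh-Rnf20* -/- (−0.51, adjusted p = 0.221 with edgeR), and *Spink2* 0.80 and 1.13 against 1.75 and 1.29 (0.69, adjusted p = 0.538).

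**Figure D4:**
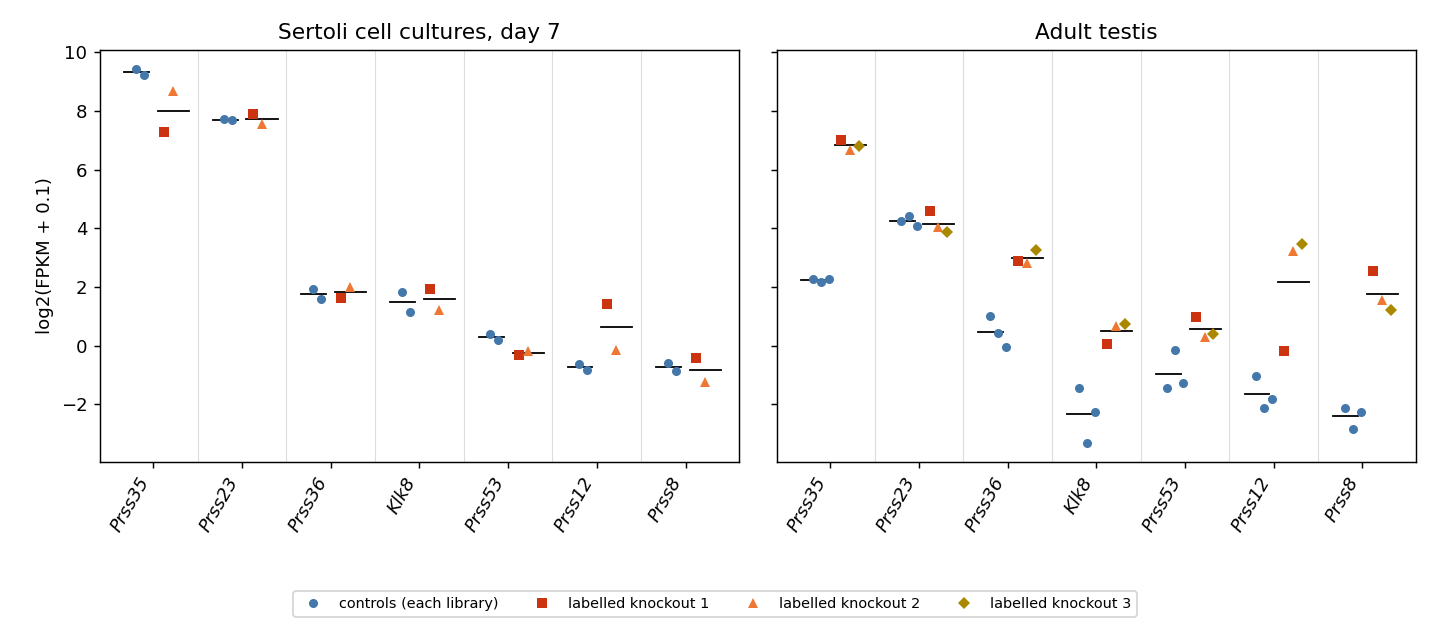
Levels of 7 protease genes that were tested in both tables, as log2(FPKM + 0.1), in Sertoli cell cultures at day 7 (left, 2 libraries per group) and adult testis (right, 3 per group), with circles for controls, other symbols for knockout libraries and black bars for group means of the log2 values. *Prss35* lies below the controls in both *Amh-Rnf20* -/- libraries at day 7 and above them in all 3 adult libraries labelled knockout.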

How the data were processed

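RNA of 6 adult testis libraries and 4 Sertoli cell libraries at 7 days after birth was enriched with oligo(dT) and sequenced on the BGISEQ platform. Of day 7, 2 libraries per group were analysed here, while the study's methods name 3 individuals in each. Per the labels and methods, the authors used HISAT for mapping to GRCm38.p6, Bowtie2 for mapping to reference genes and RSEM for FPKM. These methods describe the day 7 libraries, and the same processing is assumed for the adult table, which has the same columns. Versions, read filters and strand handling are not given in the sources used here. The deposited estimated counts are not normalized, and 10.7% to 13.2% of the genes per library had a count that was not whole. The deposited FPKM values take gene length and library size into account, so levels of different genes were compared in FPKM, and the deposited TPM values entered no test. All percents of a control mean are of FPKM and are not TMM-scaled. In adult testis the median log2 fold change over all genes tested was 0.87 with total-count scaling and 0.01 with TMM. A further 20 columns of the adult table are empty.

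Counts were rounded and tested with edgeR's quasi-likelihood test (TMM scaling, Benjamini-Hochberg adjustment over all genes tested), each table alone. TMM factors were 0.710 to 0.761 in the adult controls and 1.27 to 1.42 in the adult libraries labelled knockout, and 0.984 to 1.02 at day 7. Genes with at least 0.5 FPKM in 3 libraries (adult) or 2 (day 7) were tested. Standard errors were obtained from the log2 fold change and the square root of F. The thresholds were those of the study, a log2 fold change beyond 1 in either direction with an adjusted p under 0.001. Where every library labelled knockout held at most 3 counts, a bound from 3 counts per library is given, which covers counting error only. Scripts were tested on simulated data. Every tested protease gene is named with its value in each library. Of the partner genes those past both thresholds, *Igfbp3*, *Acr* and *Spink2* are named by rule. The members, role groups, marker lists and tests were chosen with earlier results of these data known. Alternatives covered scaling, DESeq2, limma on log2(FPKM + 0.1) and log2(FPKM + 1), the filter, a replicate block, the thresholds and each library left out, and total-count scaling without the first adult library labelled knockout was added after seeing the data. The labels do not say that replicate numbers pair the libraries, so the main tests were unpaired.

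Positions and promoter windows came from RefSeq tables on GRCm38.p6, which held 58 and 48 of the 58 genes. Transcripts came from GENCODE on GRCm38. Motifs were searched by exact letters on both strands. Sequence identity is over matched bases of an alignment with free end gaps. The tools were R 4.3.3, edgeR 4.0.16, limma 3.58.1, DESeq2 1.42.0, Python 3.11.15 and Biopython 1.88.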

Additional observations from a re-analysis of the deposited data

Results flagged for a closer look

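*Prss35* went in opposite directions in the tables. Its log2 fold change was 3.80 in adult testis, where all 3 libraries labelled knockout lay above all 3 controls, and −1.12 in Sertoli cell cultures at day 7, where both *Amh-Rnf20* -/- libraries lay below both *Rnf20* Flox/Flox libraries. The difference between the tables was not tested, since they were made separately from different material. In TMM-scaled counts it was the only one of the 8 protease genes tested in both tables with opposite directions and no overlap in either. In FPKM *Prss53* met this too, with log2 fold changes of 0.98 in adult testis and −0.55 at day 7.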

How the results depend on the processing

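In adult testis the 15 genes past both thresholds (2 higher, 13 lower) became 29 with DESeq2 (4 and 25), 26 with limma on log2(FPKM + 1) (4 and 22), and 31 at an adjusted p under 0.05 alone (5 and 26). With median-ratio scaling 1 was higher. With total-count scaling and without the first library labelled knockout, added after seeing the data, 30 passed (7 and 23). Leaving out 1 library gave 7 to 30 genes, 1 to 4 higher and 6 to 26 lower. The calls over all genes moved with these counts, from 7432 to 10256 with DESeq2, 8804 with limma on log2(FPKM + 1), 12969 at an adjusted p under 0.05, 11041 in the added setting and 2695 to 10301 with 1 library left out. The 4 sperm proteases called became 13 with DESeq2 and at an adjusted p under 0.05, 11 with limma on log2(FPKM + 1), 12 in the added setting and 2 to 14 with 1 library left out. The Leydig-type kallikreins called were 0, and 3 in the added setting, all higher. The 5 partner genes (3 higher, 2 lower) became 11 (6 and 5) with DESeq2, 9 (5 and 4) with limma on log2(FPKM + 1), 12 (7 and 5) at an adjusted p under 0.05 and in the added setting, and 3 to 12 (2 to 7 higher, 1 to 5 lower) with 1 library left out, and 5 were higher with total-count scaling and with limma on log2(FPKM + 0.1). At day 7 leaving out 1 library gave 0 to 2 protease genes (0 to 1 higher, 0 to 1 lower) and 0 to 2 partner genes (0 to 1 higher, 0 to 1 lower), with 0 to 650 genes called over all. The causes were not tested.

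The sign of some log2 fold changes turned. Adult *Rnf20* was −0.0753 with median-ratio scaling and with DESeq2. *Prss23* was 0.0406 and *Klk1b1* 0.56 with total counts, and in the added setting *Klk1b1* was 1.14 and *Klk1b22* 0.30. *Klk1b16* was −0.61 with limma on log2(FPKM + 0.1). At day 7 *Prss46* was −0.00071 with total counts, −0.0779 and −0.0171 with limma at a pseudocount of 0.1 and 1, and −0.00563 with the replicate block. With 1 library left out the log2 fold change of *Klk1b1* ranged from −3.43 to 0.82, of *Klk1b16* from −1.50 to 1.09, of *Klk1b21* from −0.84 to 1.32, of *Klk1b24* from −0.29 to 1.85 and of *Klk1b27* from −0.11 to 1.75. At day 7 the ranges were −0.61 to 0.33 for *Prss8*, −0.61 to 0.49 for *Prss46*, −0.13 to 0.28 for *Prss36*, −0.38 to 0.49 for *Klk8* and −0.0631 to 0.28 for *Prss23*.

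With the replicate number as a block no gene passed both thresholds in either table, giving 0 protease genes (0 higher, 0 lower), 0 sperm proteases and 0 partner genes in adult testis; *Klk1b21* was then −0.35 and *Klk1b16* −0.75. The numbers name no shared animal or batch. Deviations of same-numbered libraries correlated at 0.02, 0.03 and 0.02 in adult testis and 0.03 at day 7. Those of differently numbered libraries lay between −0.0273 and −0.000648 in adult testis and were −0.0293 at day 7. Deviations from means of 2 or 3 libraries constrain these values, so they cannot decide whether the libraries are paired. The comparisons rest on 2 or 3 libraries per group, and what limits those of the Leydig-type kallikreins and of day 7 was not tested.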
